A study of Mus musculus with 26 samples.

Results

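Potassium channel genes are described here as 91 protein-coding mouse genes whose symbol begins with Kcn, out of 20759 protein-coding genes with a symbol in the RNA tables. They were chosen by symbol alone, and 3 further Kcn genes, Kcnj10, Kcnj16 and Kcnn2, were left out by the same rule. By role the 91 members comprise 30 pore subunits of voltage-gated channels, 10 silent subunits, 13 auxiliary subunits, 13 inward rectifiers, 14 two-pore-domain channels and 11 calcium- or sodium-activated channels with their beta subunits. The RNA came from cultured cochleae of mice at postnatal day 1. At 24 h, cells carrying Lfng-GFP were sorted from cultures given DAPT, which blocks the Notch pathway by inhibiting gamma-secretase, and from cultures given its solvent DMSO (3 libraries each). At 48 h, cells were lineage-marked by Lfng-CreER with a TdT reporter. Of these, DAPT-treated cells that also carried Atoh1-GFP are called permissive (3 libraries), DAPT-treated cells without it nonpermissive (3 libraries), and DMSO-treated cells without it control (2 libraries). ATAC and H3K27ac peak lists at 48 h were deposited for 2 samples in each of the same 3 groups. Both sorts rest on the Lfng promoter, and the permissive group was defined by a hair cell reporter, so its RNA was selected for that lineage. Kits differed between the times (poly(A) TruSeq at 24 h, QIAseq FX Single Cell at 48 h), so time, sort and kit cannot be told apart. Separate animals are not stated in the labels, so the p-values rest on a spread among libraries that may be technical only.

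Supporting cells surround the sensory hair cells of the cochlea and, in the young mouse, can turn into hair cells when Notch signalling is blocked. Potassium channels let K+ leave or enter a cell down its gradient: voltage-gated channels open on depolarization, inward rectifiers and two-pore-domain channels set the resting potential, and calcium-activated channels couple calcium entry to repolarization. In the cochlea, hair cells are known for large-conductance calcium-activated (BK) channels, whereas supporting cells are known for inward rectifiers that take up K+.

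Total counts per library ranged between 10666050 and 13158897 at 24 h, and between 2165338 and 4896374 at 48 h. Of the 91 members, 44 passed the filter on low counts at 24 h and 39 at 48 h. Members without a single count in any library of the group numbered 13 in DAPT and 10 in DMSO cells, and 27 in permissive, 29 in nonpermissive and 34 in control cells. Summed CPM (counts scaled to a common library size, with TMM factors) of 22 hair cell markers was 5894 to 10054 in DAPT and 2302 to 2739 in DMSO cells, and 7885 to 10180 in permissive, 329 to 410 in nonpermissive and 163 to 286 in control cells. For 20 supporting cell markers it was 8628 to 10843 in DAPT and 17206 to 18753 in DMSO cells, and 1212 to 1532 in permissive, 8086 to 13621 in nonpermissive and 10825 to 15563 in control cells. In bulk RNA, fewer cells of a type and less RNA per cell cannot be told apart.

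Among the members, the genes with the most RNA per length differed between the groups. In DAPT cells the pore subunit Kcnh6, of the ether-a-go-go-related family, led with 324 ± 33.8 TPM (RNA level per gene length, on the same total in each library; SD, n = 3), followed by the inward rectifier Kcnj13 with 167 ± 95 TPM. In DMSO cells the two-pore-domain channel Kcnk1 had 143 ± 11.5 TPM and Kcnh6 128 ± 21.0 TPM, levels within the spread of each other, with Kcnk1 higher in 1 of 3 libraries. In permissive cells the BK beta subunit Kcnmb2 led with 98.8 ± 40.9 TPM, before Kcnh6 with 73.4 ± 61.8 TPM, Kcna10 with 68.4 ± 57.1 TPM and Kcns3 with 58.7 ± 5.82 TPM. These 4 levels lay within the spread of each other. In nonpermissive cells Kcnk1 led with 46.3 ± 28.8 TPM and in control cells with 52.6 ± 30.5 TPM (SD, n = 2). Two-pore-domain channels made up 3.34% to 7.22% of the members' summed TPM in permissive cells, 20.7% to 31.5% in nonpermissive cells and 33.4% to 37.0% in control cells. Silent subunits made up 10.1% to 15.5% in permissive, 3.08% to 4.75% in nonpermissive and 3.62% to 6.02% in control cells.

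**Figure D1:**
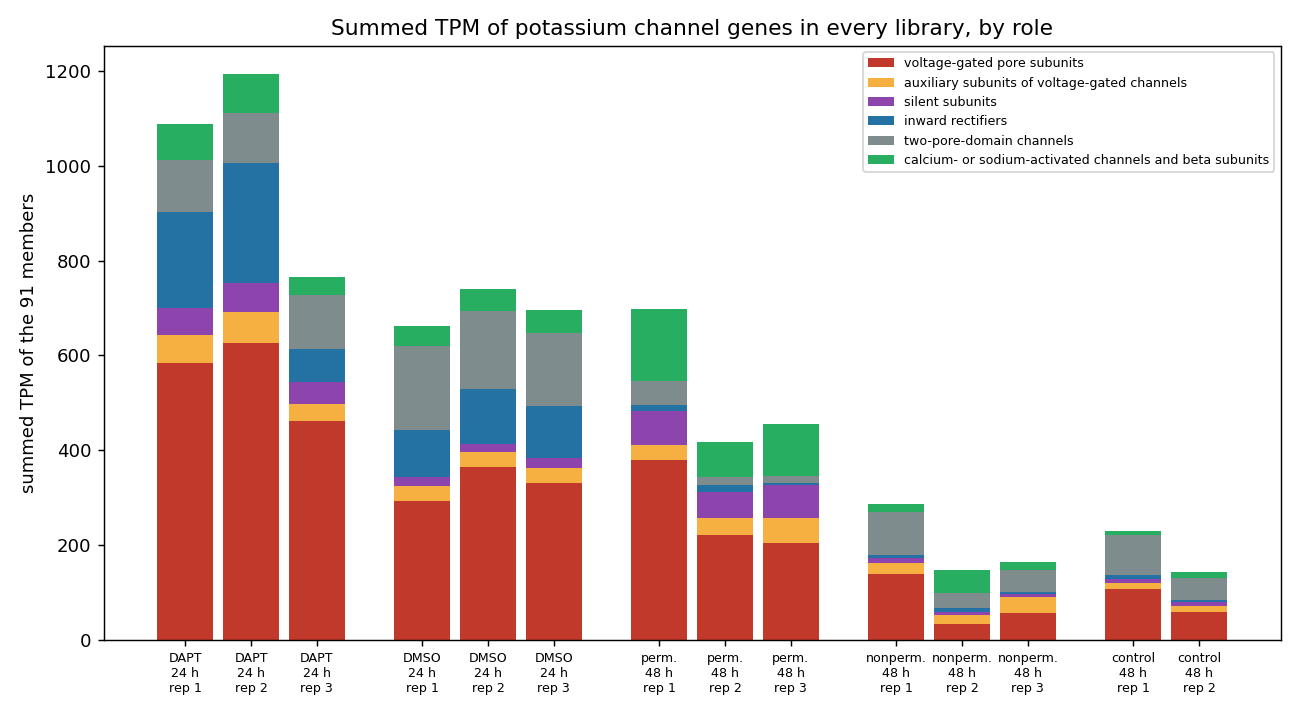
Summed TPM of the 91 members in each library (bars, linear axis from 0), split by role, with DAPT before DMSO at 24 h and permissive, nonpermissive and control libraries at 48 h. The permissive libraries sum to 418 to 698 TPM, above the 147 to 287 TPM of nonpermissive and the 143 to 230 TPM of control libraries.

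The promoters of 4 members whose start or gene holds an H3K27ac region described below are shown first. Each run is the 250 bases before an annotated start, read 5′ to 3′ on the gene's strand, from RefSeq on build GRCm38.p6, and capitals mark the E-box letters CANNTG, which basic helix-loop-helix factors such as ATOH1 are known to bind.

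Kcna10 (chr3:107182893-107183142, plus strand): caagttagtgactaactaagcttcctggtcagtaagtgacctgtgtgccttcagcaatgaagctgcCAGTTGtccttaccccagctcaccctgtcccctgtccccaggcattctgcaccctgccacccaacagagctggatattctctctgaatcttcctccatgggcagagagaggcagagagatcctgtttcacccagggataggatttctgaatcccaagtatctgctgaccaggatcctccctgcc
Kcns3, upstream start (chr12:11150843-11151092, minus strand): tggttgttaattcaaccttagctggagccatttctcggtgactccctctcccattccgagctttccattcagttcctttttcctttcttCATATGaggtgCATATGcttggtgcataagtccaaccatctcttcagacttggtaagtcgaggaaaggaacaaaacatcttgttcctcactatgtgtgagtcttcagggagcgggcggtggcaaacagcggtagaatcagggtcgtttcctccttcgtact
Kcnip3, upstream start (chr2:127522095-127522344, minus strand): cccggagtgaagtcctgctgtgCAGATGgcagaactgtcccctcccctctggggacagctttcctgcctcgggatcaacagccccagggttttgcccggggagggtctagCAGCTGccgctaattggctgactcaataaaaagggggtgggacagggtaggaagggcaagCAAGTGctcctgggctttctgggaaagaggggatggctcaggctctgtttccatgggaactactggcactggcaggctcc
Kcnmb2 (chr3:31902453-31902702, plus strand): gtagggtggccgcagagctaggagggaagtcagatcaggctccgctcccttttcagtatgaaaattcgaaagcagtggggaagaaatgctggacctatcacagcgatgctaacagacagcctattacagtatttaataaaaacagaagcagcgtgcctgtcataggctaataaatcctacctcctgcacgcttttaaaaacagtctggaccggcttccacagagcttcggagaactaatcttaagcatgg

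On both strands, CANNTG is found 1 time in the Kcna10 window, 2 times in that of Kcns3, 3 times in that of Kcnip3 and 0 times in that of Kcnmb2. Starts of these members that are not printed differ: CANNTG is found 0 times before the other Kcnip3 starts and 1 time before the other Kcns3 start. The letters CANNTG occur in 66.2% of 32851 RefSeq promoter windows of this length. Its forms CAGCTG and CAGATG, each found 1 time in the printed Kcnip3 window, occur in 13.0% and 14.4%. The letters GTGGGAA, part of the sites of the Notch effector RBPJ, are in none of the 4 printed windows and in 5.42% of all. Among changed members whose windows are not printed, they are found 1 time before the listed Kcnh2 start and 1 time before 1 of the Kcnab2 starts. A match here is a description of the letters, not a bound site.

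The comparison at 24 h asked what the block of Notch signalling did to RNA in Lfng-GFP cells. Of 44 members tested, 9 rose and 7 fell (36.4%), where 25.7% of all 15174 genes tested changed, 11.5% upward and 14.2% downward. The members' median log2 fold change was 0.07, against 0.01 over all genes. Of all genes, 20.7% had every DAPT library above every DMSO library and 21.7% every DAPT library below, which is the background for statements on overlap. Silent subunits and auxiliary subunits rose where they changed (2 of 3 and 2 of 6 tested), inward rectifiers fell where they changed (2 of 5), and of 5 two-pore-domain channels 3 fell and 1 rose.

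Among pore subunits, Kcnh6 had 546, 600 and 495 CPM in the DAPT libraries, against 176, 227 and 234 CPM in the DMSO libraries. Every DAPT library was above every DMSO library, and the log2 fold change was 1.36 ± 0.13 (SE; edgeR quasi-likelihood test, Benjamini-Hochberg adjusted p = 0.000116). Its relative Kcnh7 had 47.9, 47.2 and 37.0 CPM with DAPT and 19.8, 24.8 and 21.6 CPM with DMSO, also without overlap (1.00 ± 0.14, adjusted p = 0.00100). Kcnq5, a pore subunit of slowly activating channels, rose at a low level, with 2.06 ± 0.893 CPM in DAPT and 0.339 ± 0.354 CPM in DMSO cells (SD, n = 3 each; adjusted p = 0.0198). That call was lost without DMSO replicate 1 or 3 or DAPT replicate 1 (adjusted p up to 0.0854).

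Kcnb2 and Kcnq1 fell. Kcnb2, a delayed rectifier, had 66.6, 50.5 and 75.7 CPM with DAPT and 129, 171 and 118 CPM with DMSO, so that all DAPT libraries lay lower (−1.12 ± 0.18, adjusted p = 0.00198). Kcnq1, which in the stria vascularis secretes K+ into the endolymph, had 0.454, 0.151 and 1.03 CPM with DAPT and 4.62, 2.49 and 2.14 CPM with DMSO, which are low levels without overlap (−2.52 ± 0.59, adjusted p = 0.0136). The Kcnq1 call was lost without DMSO replicate 1 or DAPT replicate 1 (adjusted p up to 0.0607). Its partner Kcne1 had 1 count over the 3 DAPT libraries and 0 over the 3 DMSO libraries and was not tested. Summed CPM of 8 strial marginal cell markers was 400 to 425 in DAPT and 404 to 492 in DMSO cells, with Esrrb and Bsnd at 0 in both groups. Of 5 tested, 3 fell and 1 rose. Within the sum, Slc12a2 had 300 ± 14.4 CPM in DAPT and 246 ± 34.6 CPM in DMSO cells (not called). Atp1b2 fell, with 93.3 ± 14.7 CPM in DAPT and 176 ± 23.4 CPM in DMSO cells, so changes in opposite directions are hidden in the sum.

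The 2 silent subunits that rose form no channel alone and modify the delayed rectifiers of the Kcnb family. Kcns3 had 69.4, 77.5 and 59.9 CPM in DAPT libraries, against 20.5, 21.0 and 22.6 CPM in DMSO libraries. The groups stood well apart, and Kcns3 had the smallest adjusted p of the members (1.69 ± 0.12, adjusted p = 2.22e-05). Kcnf1 had 11.1, 15.3 and 12.2 CPM with DAPT and 1.04, 1.33 and 2.41 CPM with DMSO, again without overlap (3.01 ± 0.31, adjusted p = 0.000179).

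Of the auxiliary subunits, Kcnab2, a cytoplasmic beta subunit of the Kcna family, had 18.8, 20.0 and 12.6 CPM with DAPT and 6.98, 9.36 and 9.98 CPM with DMSO. No DAPT library fell into the DMSO range (0.97 ± 0.22, adjusted p = 0.0119), but without DAPT replicate 1 the adjusted p was 0.0564. Kcnip2, a calcium-binding partner of the Kcnd channels, rose at low levels, 1.09 ± 0.113 CPM in DAPT and 0.239 ± 0.187 CPM in DMSO cells (adjusted p = 0.0202), and passed in 2 of the 6 fits that left out a library, those without DMSO replicate 3 and without DAPT replicate 3 (up to 0.0736 in the others).

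Among inward rectifiers, Kcnj12 had 1.36, 1.13 and 2.53 CPM with DAPT and 7.45, 12.3 and 14.7 CPM with DMSO. Kcnj2, of the same strongly rectifying subfamily, had 5.36, 5.21 and 4.78 CPM with DAPT and 10.3, 20.0 and 20.6 CPM with DMSO. Both were lower in every DAPT library, with log2 fold changes of −2.79 ± 0.37 (adjusted p = 0.000738) and −1.73 ± 0.27 (0.00185). Among two-pore-domain channels, the acid-sensitive Kcnk3 had 3.0, 3.85 and 8.06 CPM with DAPT and 26.4, 33.8 and 19.0 CPM with DMSO (−2.42 ± 0.36, 0.00133). Kcnk1, the two-pore-domain member with the most RNA, had 108, 105 and 112 CPM with DAPT and 168, 146 and 144 CPM with DMSO, a smaller but regular difference (−0.49 ± 0.09, 0.00369). Neither of these 2 overlapped between the groups. Kcnk6 had 6.77 ± 1.59 CPM in DAPT and 11.0 ± 0.930 CPM in DMSO cells (adjusted p = 0.0393), and lost its call when any library other than DAPT replicate 3 was left out (up to 0.124) and with the replicate number as a block (0.0628). Kcnk13 was the two-pore-domain channel that rose, with 2.36, 2.34 and 3.0 CPM in DAPT and 0.189, 0.414 and 0.0891 CPM in DMSO libraries, which did not overlap (3.39 ± 0.48, 0.00104). Markers of pericytes and smooth muscle, cells in which several inward rectifiers are used, moved beside these falls: 8 of them summed to 33.9 to 45.9 CPM in DAPT and 260 to 338 CPM in DMSO cells, with none at 0. Of 5 tested, 3 fell and 1 rose. Markers of blood and macrophages, in which Kcnk13 is also known, summed to 47.3 to 56.8 CPM in DAPT and 11.3 to 20.9 CPM in DMSO cells (12 genes, with Hba-a1 at 0 in both groups and Hbb-bs at 0 in DMSO). Only 2 of these 12 passed the filter on low counts, and 1 rose. The part of these markers in the results was not tested.

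**Figure D2:**
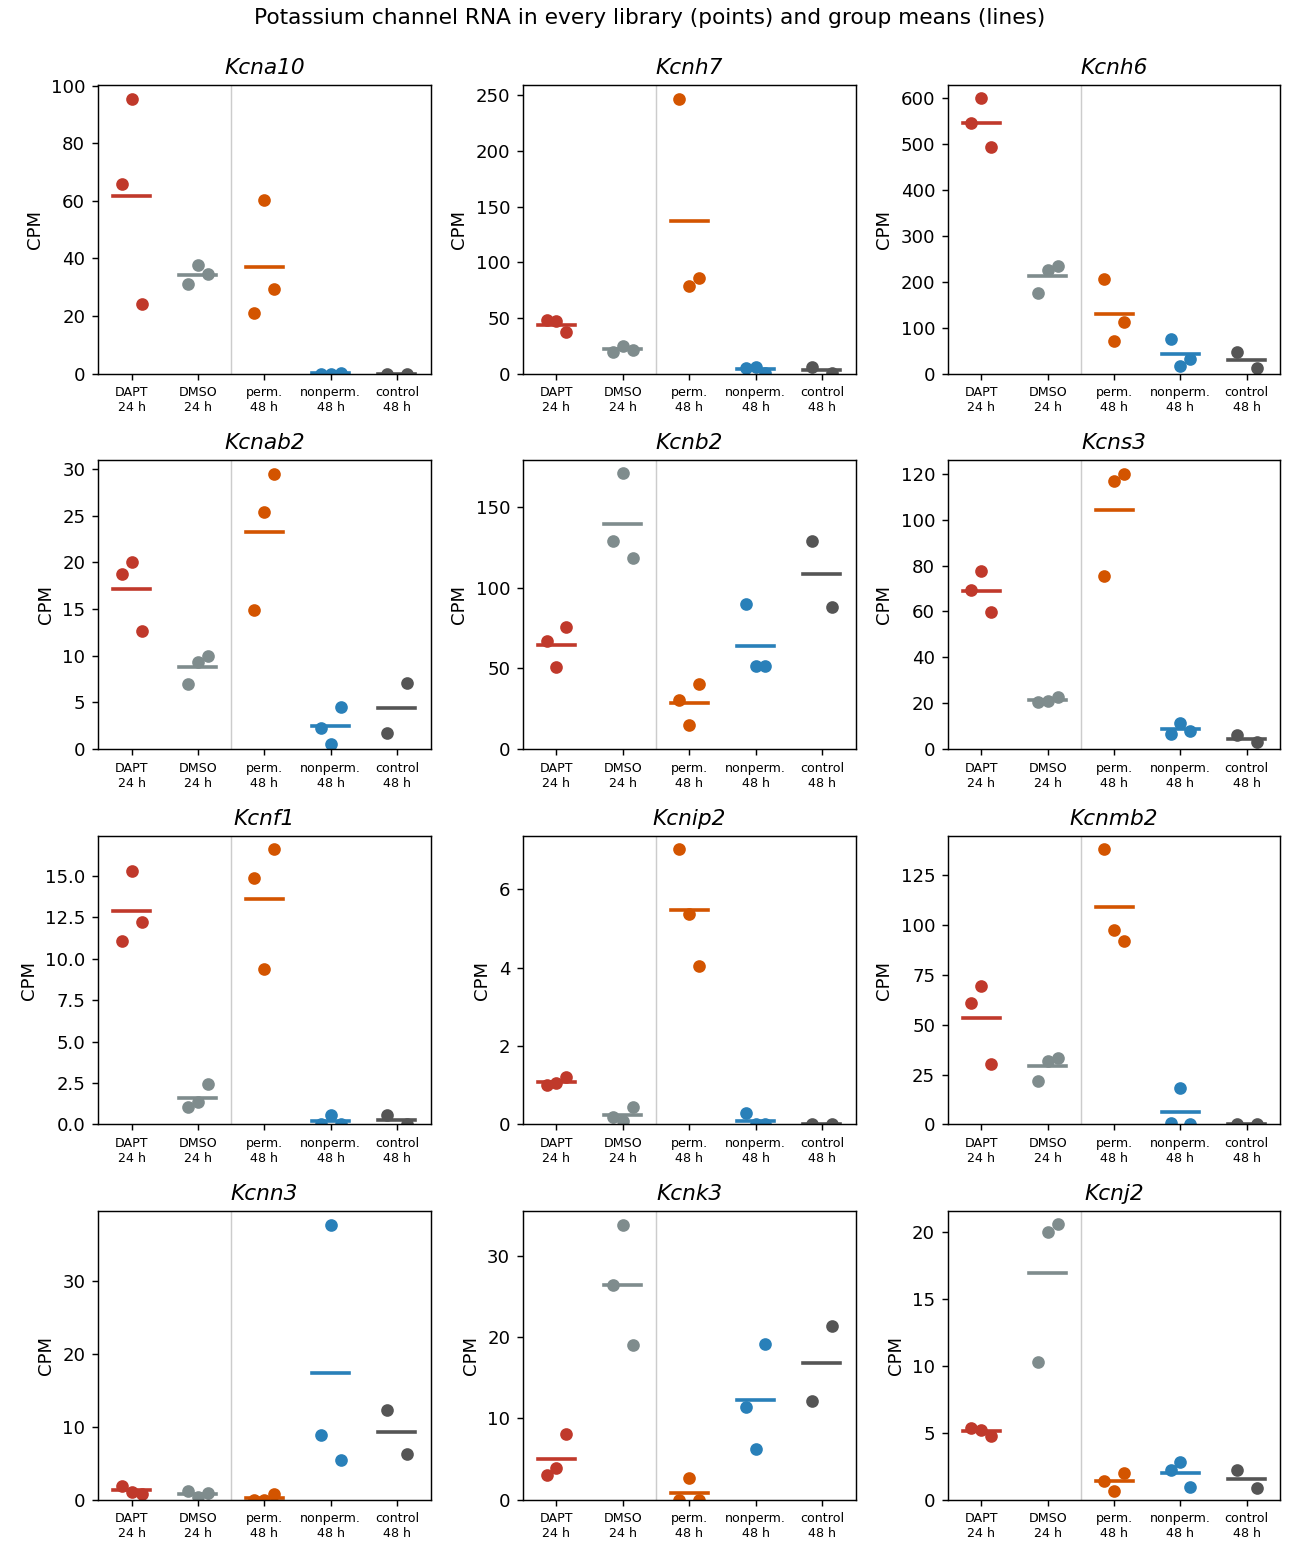
CPM of 12 members in every library (points; lines are group means; linear axes from 0, scaled per gene), DAPT then DMSO at 24 h and permissive, nonpermissive and control at 48 h, where the vertical line separates the 2 library kits. Kcns3 lies at 59.9 to 77.5 CPM in DAPT and 20.5 to 22.6 CPM in DMSO cells, and at 75.5 to 120 CPM in permissive, 6.42 to 11.4 CPM in nonpermissive and 2.85 to 5.98 CPM in control cells.

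DAPT replicate 3 stood apart for a set of members. Kcna10, a pore subunit gated by voltage and sensitive to cyclic nucleotides, had 65.8, 95.5 and 24.2 CPM in DAPT libraries and 31.0, 37.8 and 34.5 CPM in DMSO libraries. DAPT replicates 1 and 2 were above all DMSO libraries and replicate 3 was below them, and the comparison did not pass (0.85 ± 0.39, adjusted p = 0.153). Kcnmb2 had 60.8, 69.4 and 30.1 CPM with DAPT and 21.8, 31.9 and 33.5 CPM with DMSO (0.88 ± 0.29, 0.0571; 0.00485 without the filter on low counts), and its pore partner Kcnma1 had 8.99, 13.2 and 3.75 CPM with DAPT and 3.96, 4.81 and 5.70 CPM with DMSO (0.85 ± 0.40, 0.163). In both genes replicate 3 fell within or below the DMSO range. The inward rectifier Kcnj13 had 111, 145 and 36.5 CPM with DAPT and 48.9, 52.5 and 48.2 CPM with DMSO (0.97 ± 0.40, 0.109). Kcnh2 had 22.1 ± 7.57 CPM in DAPT and 19.7 ± 1.66 CPM in DMSO cells (adjusted p = 0.664).

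Without DAPT replicate 3, 26 members were called, 18 up and 8 down, in place of 16, and 4948 genes in all in place of 3900. The 10 members gained included Kcnj13 (1.36, adjusted p = 5.21e-05), Kcna10 (1.23, 0.000465), Kcnmb2 (1.16, 0.000949), Kcnip3 (1.24, 0.00155) and Kcnma1 (1.20, 0.00563), and all 16 members called with every library were called again. Hair cell markers summed to 5894 CPM in DAPT replicate 3, against 8457 and 10054 CPM in DAPT replicates 1 and 2. Kcnh6, Kcnf1 and Kcns3 were high in all 3 DAPT libraries.

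**Figure D3:**
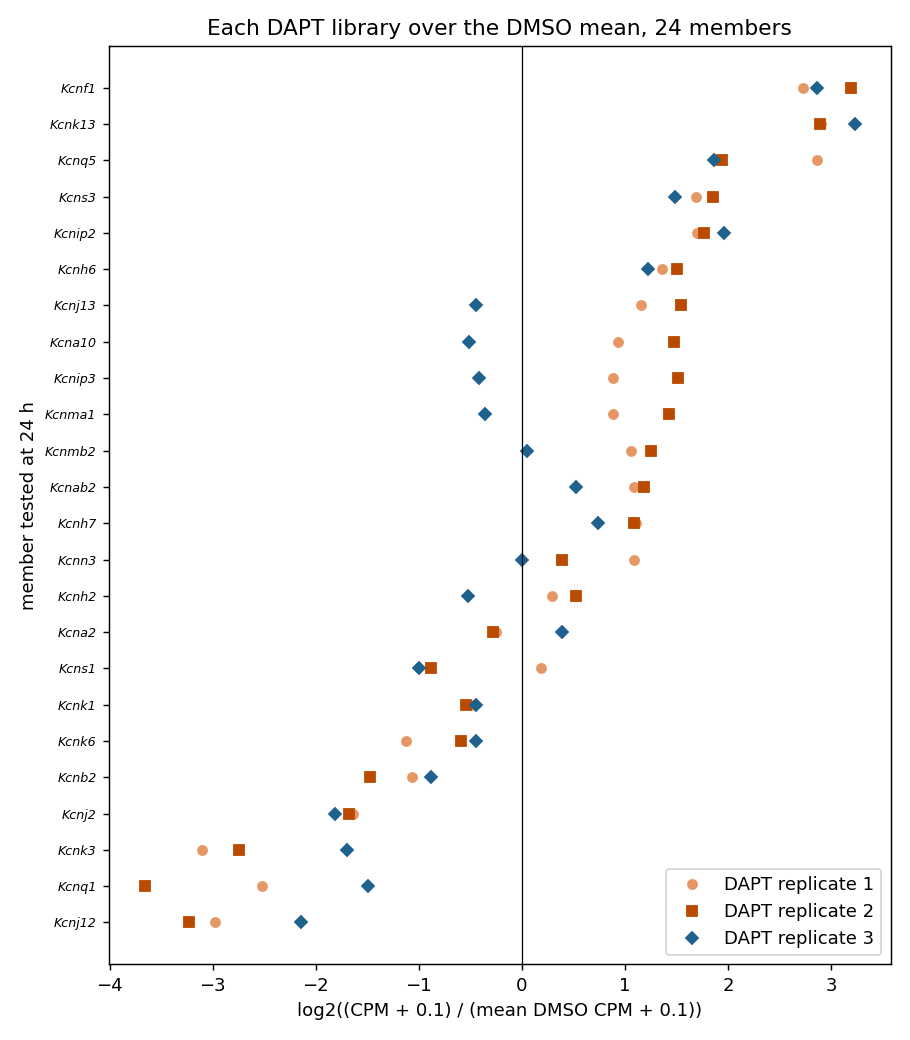
log2 ratio of each DAPT library to the mean of the 3 DMSO libraries, with 0.1 CPM added, for 24 of the 44 members tested at 24 h, ordered by the mean of DAPT replicates 1 and 2. Replicate 3 (diamonds) sits beside the other replicates at the high end and near or below 0 for Kcnj13, Kcna10, Kcnip3, Kcnma1 and Kcnmb2. At the low end, for Kcnj12, Kcnk3 and Kcnq1, it lies nearer 0 (−2.14, −1.7 and −1.49) than replicates 1 and 2 (−2.52 to −3.66).

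The comparison at 48 h between permissive and control cells asked how cells that turned on Atoh1-GFP differ from DMSO-treated cells without it. Of 39 members tested, 10 rose and 4 fell (35.9%), where 13.0% of 13411 genes changed, 5.72% upward and 7.28% downward. The members' median log2 fold change was 1.18, against 0.06 over all genes. The filter on low counts, the same for all genes, kept genes with counts in the permissive group alone, which can only rise. Kcna10 and Kcnip2, with 0 counts in both control libraries, are such members. The part of the filter in the median and in the share that rose was not tested. Of all genes, 20.5% had every permissive library above both control libraries and 20.1% below both. Without control replicate 1, 6 members passed, and also 6 without control replicate 2. In these fits 1066 and 1086 genes passed in all, in place of 1743. Kcna10, Kcnmb2, Kcns3 and Kcnh7 passed in each of the 8 fits that left out 1 library.

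Kcna10 had 21.0, 60.2 and 29.5 CPM in permissive libraries, against 0 counts in both control libraries. With 3 counts per control library as the floor, it was at least 52.1-fold higher (adjusted p = 0.000564). Kcnh7 had 247, 78.7 and 86.1 CPM in permissive and 6.17 and 0.285 CPM in control libraries, a wide spread within each group without overlap (5.33 ± 1.09, adjusted p = 0.00540). Kcnh2 had 18.8, 15.7 and 10.9 CPM in permissive and 0.374 and 0.285 CPM in control libraries (adjusted p = 0.00628). Its control level rests on 3 counts, and the ratio of summed counts was 46.2-fold with a 95% counting interval of 15.5 to 226, which covers counting error only. The call was lost without either control library (up to 0.0539). Kcnc1, a fast-deactivating channel of high-frequency firing, had 16.7, 5.36 and 11.7 CPM in permissive and 0.187 and 0.285 CPM in control libraries (2 counts in all; 52.9-fold, interval 14.3 to 442; adjusted p = 0.0172), and lost its call without either control library or permissive replicate 1 (up to 0.119). Kcna2 had 66.4, 41.8 and 97.0 CPM in permissive and 21.9 and 15.1 CPM in control libraries, without overlap (1.88 ± 0.57, adjusted p = 0.0437). This call passed in 2 of the 8 fits that left out a library and not with the replicate block (0.0608). Kcnb2 was the pore subunit that fell, with 30.1, 15.1 and 40.0 CPM in permissive and 129 and 88.2 CPM in control libraries (−1.93 ± 0.51, 0.0222), again without overlap. Its adjusted p was up to 0.148 without control replicate 1 or permissive replicate 2.

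Kcns3 had 75.5, 117 and 120 CPM in permissive and 5.98 and 2.85 CPM in control libraries. The groups stood far apart, and the log2 fold change was 4.53 ± 0.63 (adjusted p = 0.000432). Kcnf1 had 14.9, 9.37 and 16.6 CPM in permissive and 0.561 and 0 CPM in control libraries (3 counts in all; 39.5-fold, interval 13.2 to 194; 0.0173), and its call was lost without control replicate 2 (0.113). The silent subunit Kcns1 fell to 0.270 ± 0.467 CPM in permissive cells, against 6.14 ± 2.61 CPM in control cells (0.0419), but passed in 1 of the 8 fits that left out a library.

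Among auxiliary subunits, Kcnip2 had 7.02, 5.36 and 4.04 CPM in permissive libraries and 0 counts in both control libraries, at least 7.72-fold higher (adjusted p = 0.0186), and lost its call without either control library (up to 0.135). Kcne3, a single-span partner of Kcnq channels, had 5.05 ± 4.63 CPM in permissive and 0.143 ± 0.202 CPM in control cells (0.0477), and passed in 1 of the 8 fits and not with the replicate block (0.0679). Of the calcium-activated group, Kcnmb2 had 138, 97.7 and 92.2 CPM in permissive libraries and 0 counts in both control libraries, at least 154-fold higher (0.00272). The pore gene Kcnma1, whose product BK beta subunits attach to, had only 1.03, 1.00 and 0 CPM in permissive and 0 CPM in both control libraries, and was not tested. Kcnn3, a small-conductance calcium-activated channel, had 0, 0 and 0.809 CPM in permissive and 12.3 and 6.28 CPM in control libraries. It fell (0.0149), with a ratio of 52.4-fold in favour of control (2 counts in permissive cells; interval 14.1 to 439), and lost its call without control replicate 1 (0.0663). Kcnk3 fell as well, with 0, 2.68 and 0 CPM in permissive and 12.2 and 21.4 CPM in control libraries (−4.24 ± 1.18, 0.0292). The Kcnk3 call was lost without control replicate 2 or permissive replicate 1 or 3 (up to 0.107). The 8 pericyte and smooth muscle markers summed to 7.03 to 75.2 CPM in permissive, 63.7 to 123 CPM in nonpermissive and 193 to 292 CPM in control cells, beside the Kcnk3 values. Of the other marker lists, 8 of Schwann and satellite glia summed to 104 to 222 CPM in permissive, 517 to 955 CPM in nonpermissive and 520 to 1080 CPM in control cells (Mag at 0 in permissive cells, Gfra3 in nonpermissive cells, both in control cells). The 8 strial marginal cell markers summed to 61.3 to 201 CPM in permissive, 126 to 286 CPM in nonpermissive and 287 to 303 CPM in control cells (Bsnd at 0 in nonpermissive cells). The 6 melanocyte and strial intermediate cell markers summed to 4.04 to 7.36 CPM in permissive, 7.82 to 25.1 CPM in nonpermissive and 15.3 to 18.3 CPM in control cells. Dct, Tyr, Pmel and Mlana were at 0 in permissive, Tyrp1 and Mlana in nonpermissive, and Dct, Tyr and Mlana in control cells. The 15 spiral ganglion neuron markers summed to 816 to 1099 CPM in permissive, 424 to 793 CPM in nonpermissive and 626 to 1059 CPM in control cells (Prph at 0 in permissive and nonpermissive cells, Nefl and Syn1 in control cells), and of 9 tested against control 4 rose and 2 fell. In permissive, nonpermissive and control cells, 10 endothelial markers summed to 57.4 to 160, 122 to 295 and 23.2 to 54.8 CPM. In that order, 12 mesenchyme and fibrocyte markers summed to 238 to 931, 1432 to 3467 and 602 to 4148 CPM. The 12 of blood and macrophages summed to 61.1 to 257, 24.6 to 125 and 41.3 to 69.0 CPM. Against control, 2 of 9 endothelial and 1 of 6 blood markers tested rose. At 0 were Tek, Aif1, Hba-a1 and Hbb-bs in permissive and Hba-a1 in nonpermissive cells. The part of these cell types in the falls of Kcnk3, Kcnn3 and Kcns1 and in the rises was not tested.

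Kcnh6 did not pass in this comparison. It had 207, 72.0 and 112 CPM in permissive and 46.2 and 13.4 CPM in control libraries (2.12 ± 0.73, adjusted p = 0.0727; 2.31 and 0.00326 with the replicate block). The permissive libraries all lay above the control libraries. Kcnj2 had 1.38 ± 0.679 CPM in permissive and 1.55 ± 0.982 CPM in control cells and was not tested, like Kcne1 with 0 counts in permissive cells and 1 in control cells.

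Members called at 24 h and between permissive and control cells at 48 h, which share no library, were Kcnb2, Kcnf1, Kcnh7, Kcnip2, Kcnk3 and Kcns3. They are 6 of the 16 called at 24 h (37.5%) and 6 of the 14 called at 48 h (42.9%), and all 6 had the same direction at both times. Both tests could be made for 33 members, of which 13 were called at 24 h and 12 at 48 h, so that the 6 were 46.2% and 50.0% of these. Over the 12809 genes tested at both times, the 1163 called in both were 32.8% of those called at 24 h and 69.6% of those called at 48 h, and 98.7% of them had the same direction.

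**Figure D4:**
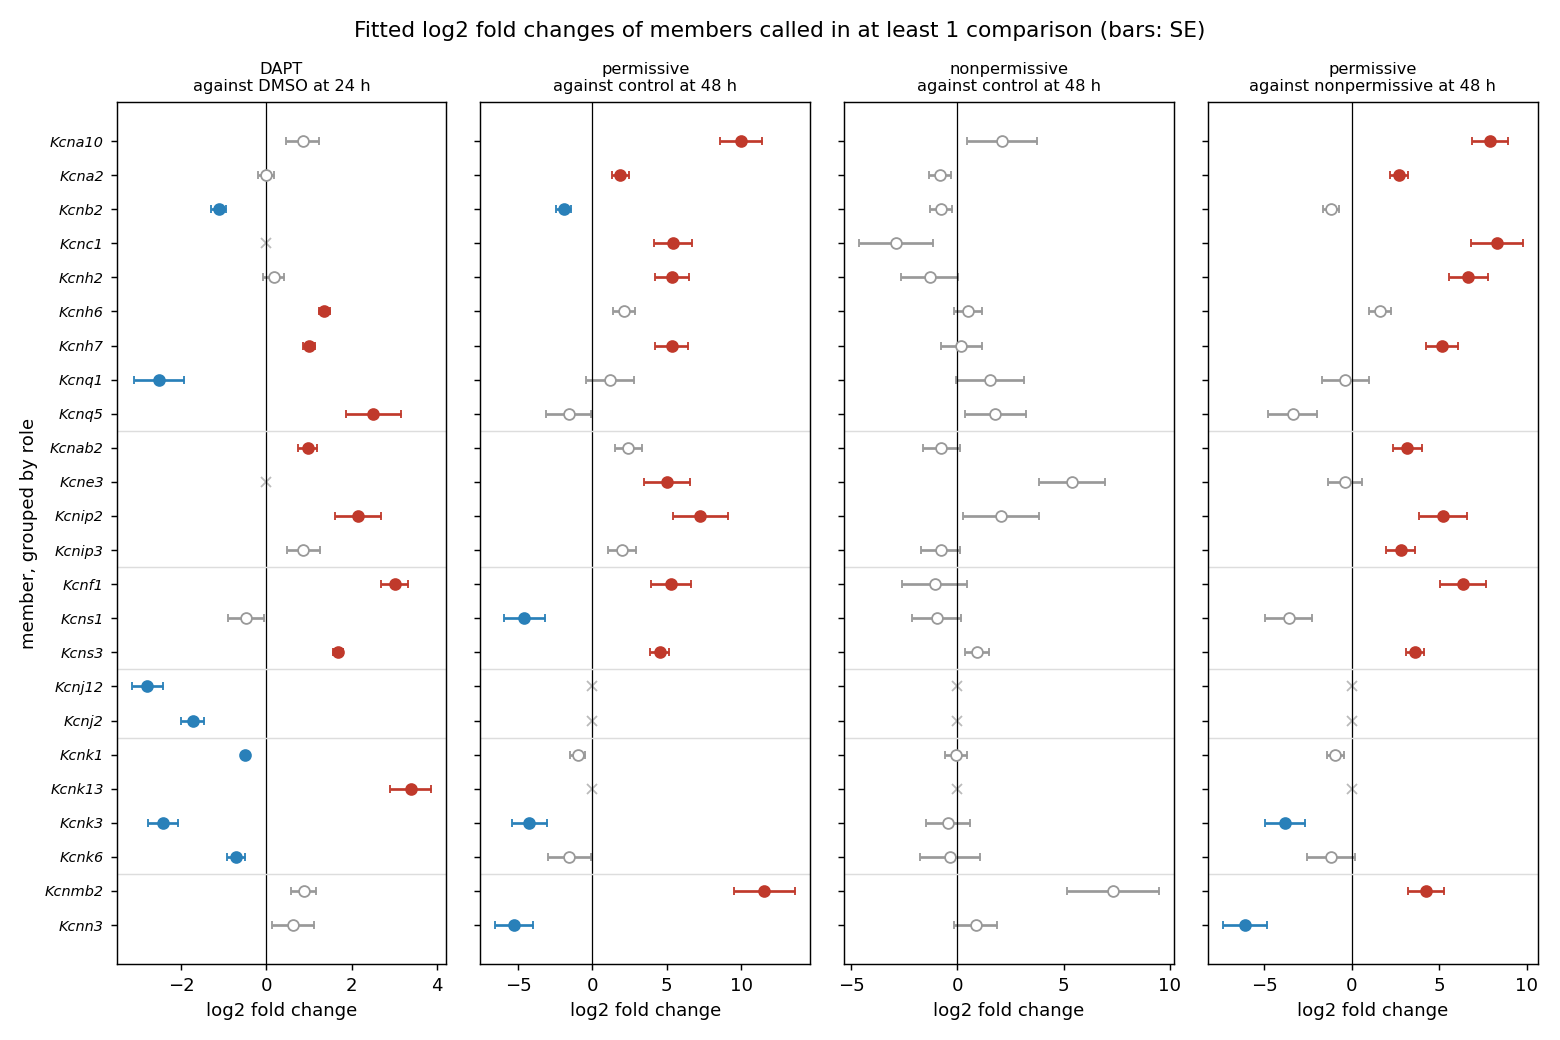
Fitted log2 fold changes with SE (bars) of 24 of the 26 members called in at least 1 comparison, grouped by role, for each of the 4 comparisons; axes differ in range. Filled red points rose, filled blue points fell, open points did not pass and crosses were not tested; fitted values of members with 0 counts in a group are no bounds. No point in the panel of nonpermissive against control cells is filled.

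Nonpermissive cells, which received DAPT without turning on Atoh1-GFP, were compared with the same control libraries. By edgeR 0 of 39 members passed, and DESeq2 called 0. Over all genes 0.194% passed by edgeR at the adjusted threshold, 0.0671% upward and 0.127% downward. Of the 39 members, 2 had an unadjusted p under 0.05, a number near what that threshold gives where nothing changes. The share of all genes at the unadjusted threshold is not given here. The 2 members were Kcne3, with 3.07, 7.42 and 9.28 CPM in nonpermissive and 0 and 0.285 CPM in control libraries (adjusted p = 0.294), and Kcnmb2, with 0.558, 18.3 and 0.320 CPM in nonpermissive libraries and 0 counts in control libraries (0.342). The Kcnmb2 level rests on nonpermissive replicate 2. Both were called without the filter on low counts (0.0469 for Kcne3, 5.52e-06 for Kcnmb2), in a fit that called 302 genes in all in place of 26.

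Between permissive and nonpermissive cells, both from DAPT cultures, 12 of 39 members rose and 2 fell (35.9%), where 13.1% of all genes changed, 6.78% upward and 6.35% downward. The members' median log2 fold change was 1.35, against 0.00 over all genes. The limit given above for genes kept by the filter through the permissive group alone holds here too. All permissive libraries lay above all nonpermissive libraries for 15.4% of genes and below them for 14.7%. Nonpermissive libraries had 0, 0 and 0.320 CPM of Kcna10 (adjusted p = 0.000401), a single count, so that the ratio of 295-fold has a counting interval of 52.6 to 11676. For Kcns3 they had 6.42, 11.4 and 8.00 CPM, below every permissive library (3.61 ± 0.51, 0.000484), and for Kcnh7 5.03, 6.28 and 0.640 CPM (5.15 ± 0.92, 0.00227). Kcnc1 had 0 counts in the 3 nonpermissive libraries and was at least 9.63-fold higher in permissive cells (0.00325). Kcnh2 rested on 1 nonpermissive count (137-fold, interval 24.3 to 5444; 0.00134), as did Kcnf1 (117-fold, 20.7 to 4657; 0.00527) and Kcnip2 (49.8-fold, 8.61 to 2000; 0.0238). Kcnmb2 rose by 4.24 ± 1.05 (0.0174), with the nonpermissive values given above, and did not pass by DESeq2 (0.0664).

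Kcna2 also rose between these groups, with 66.4, 41.8 and 97.0 CPM in permissive and 8.94, 14.8 and 8.00 CPM in nonpermissive libraries, which did not overlap (2.70 ± 0.52, adjusted p = 0.00339). Kcnab2 had 23.3 ± 7.57 CPM in permissive and 2.43 ± 1.96 CPM in nonpermissive cells (0.0186), and Kcnip3, a calcium sensor related to Kcnip2, had 14.7 ± 7.41 CPM in permissive and 2.12 ± 1.49 CPM in nonpermissive cells (0.0454). The Kcnab2 call was lost without nonpermissive replicate 1 or 2 (up to 0.0701), and the Kcnip3 call passed in 3 of the 8 fits that left out a library. Kcnn3 had 8.94, 37.7 and 5.44 CPM in nonpermissive libraries, all above the permissive ones (0.00546), and Kcnk3 had 11.4, 6.28 and 19.2 CPM (−3.80 ± 1.13, 0.0387; 3 of the 8 fits). Kcnip2 passed in 4 of the 8 fits. With the replicate block, which pairs same-numbered libraries, Kcnh6 passed as well (1.74, 0.00510), with 75.4, 17.7 and 32.6 CPM in nonpermissive libraries.

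The RNA of genes whose proteins work with these channels changed in part. Of 9 partner subunits from other families, 5 were tested, and Dpp6, an accessory protein of the Kcnd channels, was the member of that list that rose at 48 h. It had 20.6 ± 4.15 CPM in permissive, 0.186 ± 0.322 CPM in nonpermissive and 0.0935 ± 0.132 CPM in control cells (adjusted p = 0.00142 against nonpermissive, 0.00238 against control). At 24 h the sulfonylurea receptor Abcc9 fell (2.55 ± 0.378 CPM in DAPT, 5.53 ± 1.14 CPM in DMSO cells; 0.0145). It is also known from pericytes, whose markers moved as given above. Of the 4 HCN cation channels, Hcn4 fell at 24 h (2.07 ± 0.325 CPM in DAPT, 13.1 ± 1.38 CPM in DMSO cells; 4.11e-05). Of 13 sodium-potassium pump genes, 7 were tested and 3 fell at 24 h, Atp1b2 and Fxyd6 among them, and Atp1b3 and Atp1b2 fell in permissive against control cells (Atp1b3 37.0 ± 8.95 CPM in permissive, 115 ± 39.2 CPM in control cells; 0.0230). None of the 5 cation-chloride cotransporters tested passed at 24 h or against control, and Slc12a4 fell in permissive against nonpermissive cells (2.85 ± 1.76 CPM in permissive, 43.6 ± 43.9 CPM in nonpermissive cells; 0.0110), as did Atp1b3 (106 ± 14.2 CPM in nonpermissive cells; 0.0234).

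Chromatin at 48 h was read from the authors' peak lists, in which each fold enrichment is the authors' value, and the depth behind the lists is unknown. The highest q-value in a list was 0.363 to 0.638 for ATAC and 0.109 to 0.632 for H3K27ac. A listed peak is therefore not always a significant one. Peaks of all lists of an assay were merged into regions, and a region near a member lies in its gene or within 10 kb of it. Of all 361833 ATAC regions, 3.20% were in both permissive lists and in no control list, and of 232299 H3K27ac regions 3.94%. Near the 26 members whose RNA changed in any comparison, 34 of 691 ATAC regions (4.92%) and 38 of 456 H3K27ac regions (8.33%) had this pattern. Near the 65 members not called, many of them never tested because of low counts, 38 of 1373 (2.77%) and 23 of 594 (3.87%) did. For the 13 members that rose at 48 h it was 18 of 306 ATAC regions (5.88%) and 24 of 255 H3K27ac regions (9.41%), and for the 4 that fell 4 of 135 (2.96%) and 2 of 79 (2.53%). The lists differed in size: permissive ATAC list 2 held 170918 peaks and list 1 86995, and H3K27ac lists covered 87.6 Mb in permissive 1 and 79.2 Mb in nonpermissive 1, against 22.5 to 27.1 Mb in the other 4. The part of list size in these counts was not tested.

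At 13 of the 34 ATAC regions (38.2%), near 10 members, an H3K27ac region of the same pattern overlapped, against 1996 of 11596 such ATAC regions genome-wide (17.2%). Upstream of Kcna10 by 6.2 kb, an ATAC region (chr3:107176399-107176933, between genes) had 7.74-fold and 12.5-fold enrichment in permissive lists 1 and 2, 2.42-fold and 2.66-fold in the nonpermissive lists and no control peak. It lay in an H3K27ac region of 4.48 kb with 22.8-fold and 10.4-fold enrichment in the permissive lists and no peak in the other 4 lists. A second H3K27ac region covered the Kcna10 start and the window printed above (8.93-fold and 4.78-fold in permissive lists, no other peak), where ATAC peaks were in permissive list 2 (4.84-fold) and nonpermissive list 2 (3.25-fold).

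Upstream of Kcns3 by 1.5 kb, an ATAC region (chr12:11152675-11153325, between genes) had 4.75-fold and 7.18-fold enrichment in permissive lists and no peak elsewhere. The H3K27ac region around it reached over the upstream start and the window printed above, spanned 5.74 kb, and had 22.5-fold and 7.17-fold enrichment in permissive lists, 3.26-fold in nonpermissive list 2 and no control peak. Kcnh6 had an ATAC region 1.7 kb upstream of its start (chr11:106005962-106006363), inside the neighbouring gene Ace3, at 4.82-fold and 7.37-fold in permissive lists, with H3K27ac at 13.2-fold and 5.58-fold and no peak of either kind in the other lists. The ATAC region within Kcnh7 (chr2:63060992-63061635, 122.7 kb into the gene) had 5.07-fold and 13.3-fold enrichment in permissive lists, under an H3K27ac region of 7.09 kb at 44.7-fold and 3.98-fold. Around the 5′ end of Kcnh2, 3 ATAC regions, 1 within the gene 3.8 kb past the end and 2 upstream of it by 0.7 and 5.1 kb, had 1.71-fold to 6.17-fold enrichment in permissive lists and no peak elsewhere. Within Kcnmb2, 48.7 kb past the start (chr3:31951412-31951743), the values were 2.70-fold and 7.18-fold for ATAC and 13.9-fold and 3.19-fold for H3K27ac in the permissive lists. None of these regions had a control peak.

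Of the changed members with a start in the promoter table, 12 of 20 had a start in an ATAC region of all 6 lists (60%). Among members not called, many of them never tested because of low counts, it was 22 of 47 (46.8%). Over all 27025 genes of that table it was 39.4%. Among members that rose at 48 h it was 7 of 12, and of those that fell 1 of 2. Kcnf1, Kcnip2, Kcna2 and Kcnc1, all with more RNA in permissive cells, had ATAC regions over their starts in all 6 lists, a pattern of 6.86% of all ATAC regions (Kcnf1 5.51-fold and 13.0-fold in permissive, 5.36-fold and 9.22-fold in nonpermissive, 8.34-fold and 5.71-fold in control lists), as had Kcnn3, which fell. Over the Kcnmb2 start printed above, ATAC was in permissive list 2 (5.66-fold), nonpermissive list 1 (2.10-fold) and both control lists (4.08-fold and 3.30-fold), and H3K27ac in permissive list 1 alone (4.63-fold). The Kcnip3 start printed above lay in an H3K27ac region of both permissive lists and no other (3.97-fold and 3.19-fold).

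Regions of the opposite pattern, in both control lists and no permissive list, were 2.44% of all ATAC and 1.73% of all H3K27ac regions. Near the 4 members that fell at 48 h they were 3 of 135 (2.22%) and 3 of 79 (3.80%). The H3K27ac region with the highest enrichment among these 3 was within Kcnn3, 126 kb past its start (chr3:89646496-89648311). It had no permissive peak, 21.6-fold and 5.22-fold enrichment in nonpermissive lists and 9.89-fold and 9.26-fold in control lists.

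**Figure D5:**
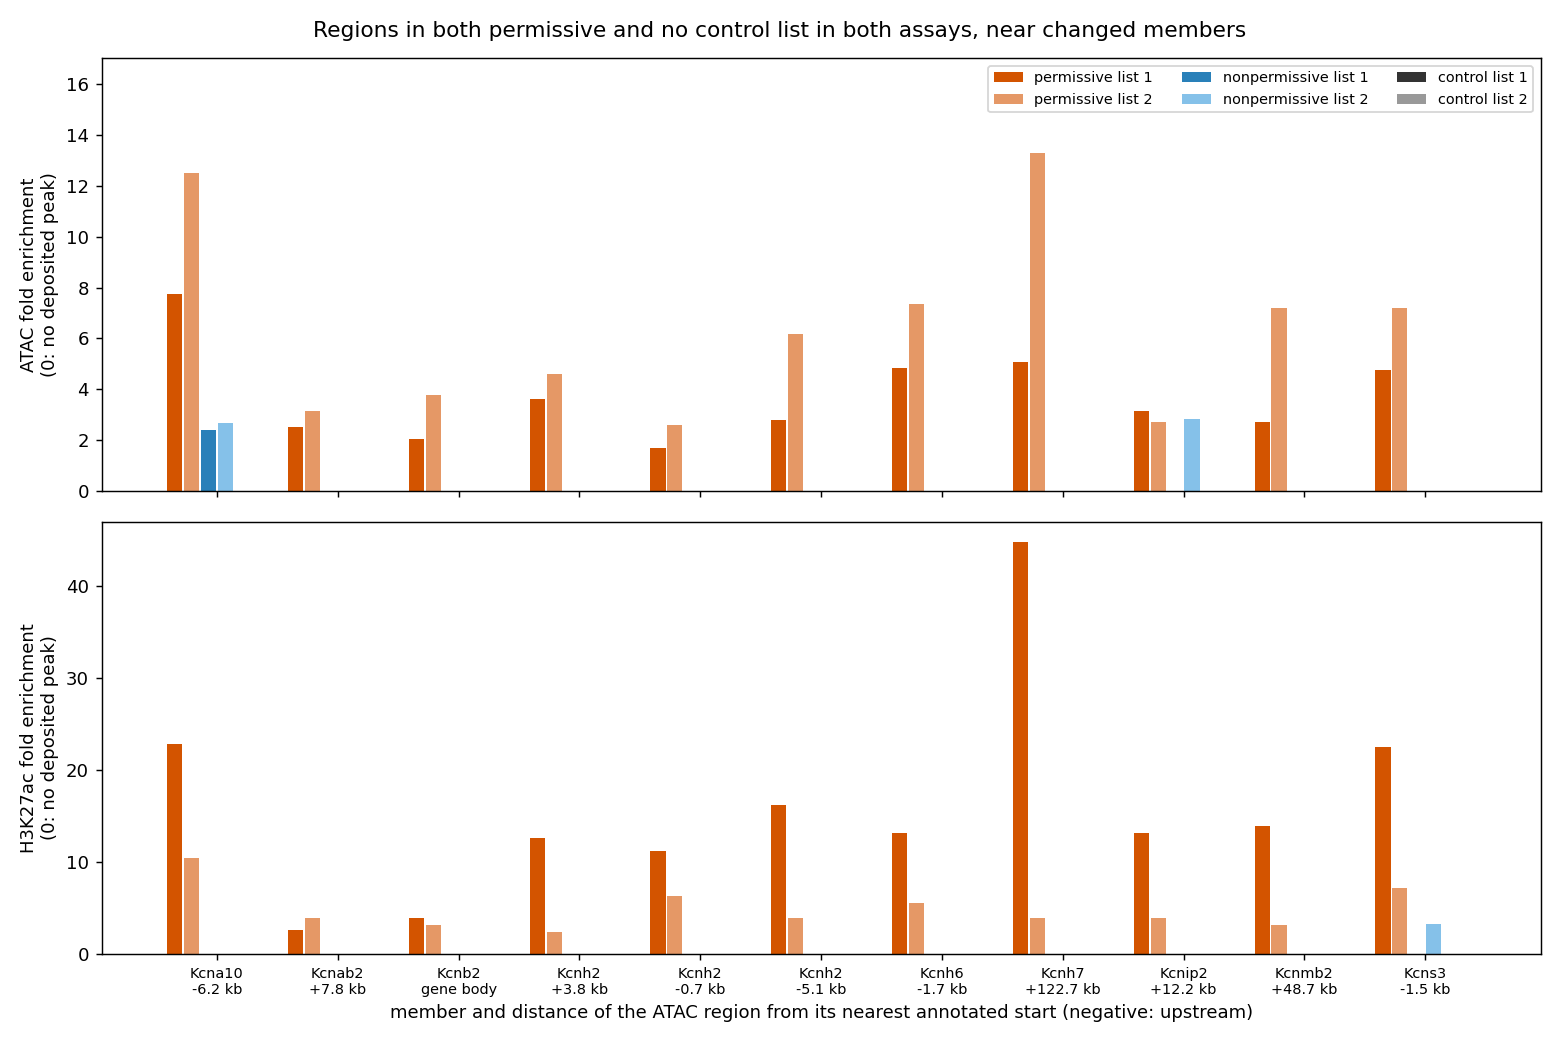
Authors' fold enrichment of 11 of the 13 ATAC regions near changed members (top) and of the overlapping H3K27ac regions (bottom) that are in both permissive and no control list; bars start at 0, 0 means no deposited peak, and distances are from the nearest start of the promoter table or the gene's 5′ end. ATAC in the permissive lists reaches 13.3-fold at Kcnh7 and H3K27ac 44.7-fold, and no control bar appears.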

How the data were processed

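Expected counts from RSEM, rounded here, and TPM were used as deposited by the authors, 1 table per RNA sample. Peak lists hold the authors' fold enrichment (a ratio) and −log10 p-value and q-value. Per the submitters' processing notes, STAR, RSEM, DESeq2, Bowtie2, MACS2 and UMI-tools were used on build mm10; no source used here gives their settings. Of 48709 gene identifiers 48349 matched a symbol; at most 0.0676% of a library's counts did not.

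Genes were filtered with filterByExpr, scaled by TMM and tested with the quasi-likelihood test of edgeR 4.0.16 (R 4.3.3), two-sided, on all genes, separately for the 6 libraries of 24 h and the 8 of 48 h. Adjusted p is Benjamini-Hochberg over all genes tested, with a threshold of 0.05 for rose or fell. The tests were checked on simulated data. DESeq2 1.42.0, other scaling and filters, a replicate block and left-out libraries were alternatives. A fold against a group at 0 counts is a bound at 3 counts per library. Regions were merged with bedtools 2.31.1, an overlap of 1 base counting as present; RefSeq gave gene positions (GRCm38.p6, the assembly of mm10). Of the 26 changed members 20 are in the promoter table, and distances, from its starts or the gene's 5′ end, are given for these.

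Same-numbered permissive and nonpermissive libraries deviated together (r = 0.56, 0.15 and 0.14 over 8156 genes), which no label explains; the main tests are unpaired, and the replicate block is the paired alternative; permissive 2 with nonpermissive 3 gave 0.16. At 24 h r was −0.01, −0.08 and −0.06.

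The members, lists and tests were chosen with earlier results of these data known. Named in each comparison were up to 4 members per role and direction with the smallest adjusted p, and always Kcnma1, Kcnmb2, Kcna10, Kcnj2, Kcnh2, Kcnq1 and Kcne1; some genes under this rule are counted but not reported here. Kcna2 and Kcnj13 and the regions described were chosen after their values were seen.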

Additional observations from a re-analysis of the deposited data

How the results depend on the processing

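Among the named members, no log2 fold change called with all libraries changed sign under any alternative. At 24 h the 16 members called became 25 without the filter on low counts and 13 to 26 with 1 library left out. All genes called went from 3900 to 4176 without the filter and to between 2573 and 4948 with 1 library left out. For permissive against control cells the 14 became 6 to 12 with 1 library left out (all genes from 1743 to between 1066 and 1738). For nonpermissive against control cells the 0 became 2 without the filter (all genes from 26 to 302). Counts of partner, HCN, pump and cotransporter genes called moved from 6 to between 4 and 12 at 24 h with 1 library left out (12 without DAPT replicate 3). Against control, permissive cells had 3 such genes, 6 without the filter, 5 by DESeq2, 5 with the replicate block and 1 to 3 with 1 library left out (1 without control replicate 1); nonpermissive cells had 0, and 2 without the filter. Permissive against nonpermissive cells had 3, 5 without the filter, 6 by DESeq2 and 1 to 4 with 1 library left out (1 without nonpermissive replicate 2). The cause of these shifts was not tested, beyond there being fewer libraries or more genes in the fit.

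The 34 ATAC regions near changed members were 4.92% of those near, against 3.20% of all ATAC regions. They became 13 at a deposited −log10 q of at least 5 (5.91% against 3.74%) and 56 within 50 kb (4.76%). With 1 list left out, by which fewer lists must hold or lack a peak, they became 36 to 185. The shares were 5.21% against 3.63% at 36 (without control list 2) and 26.8% against 24.9% at 185 (without permissive list 1). The 38 H3K27ac regions (8.33% against 3.94%) became 4 at that q (2.78% against 1.48%). Where a list had to cover at least 50% of the region they became 17 (3.73% against 1.86%). With 1 list left out they became 41 to 243. The shares were 8.99% against 4.86% at 41 (without control list 1) and 25% against 20.4% at 114 (without permissive list 1). At 243 (without permissive list 2) they were 53.3% against 33.5%. Beside the values given with the results, the replicate block changed no other call among the named members. At 48 h, levels under about 1 CPM rest on a few counts per library.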
